A study of Triticum polonicum with 8 samples.

Results

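The genes described here are those of the short arms of wheat chromosomes 1A and 1B that were read in roots of dwarf Polish wheat. They were chosen by identifier and level: a gene counts as a member when its identifier carries the arm code 1AS or 1BS, its CPM (the read count scaled to a common library total) averages 1 or more over the 8 libraries, and at least 2 of the 8 hold a read. This gave 1455 members of 3007 genes with these codes, namely 699 of 1367 on 1AS and 756 of 1640 on 1BS. Of all 124856 genes listed, 51474 met the same minimum.

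Polish wheat is a tetraploid with an A and a B subgenome, so most genes of 1AS have a counterpart (a homoeologue) on 1BS that descends from the same ancestral gene. The group 1 short arms are known for clustered loci of gliadins and low-molecular-weight glutenins, the storage proteins of the grain endosperm, and for clusters of resistance genes against mildew and rust fungi. The short arm of 1B also carries a nucleolus organizer, a tandem array of ribosomal RNA genes. The files pair no identifier with a gene name or description, so none of these loci is assigned to a member, no root marker could be looked up, and members are named by identifier. A number after the arm code in an identifier names the sequence scaffold, and the last number orders the genes along it.

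Seedling roots were sampled at 4 weeks of age after 1 week of treatment, with 1 library for each of 8 treatments. Biological replication is given as 3 per treatment in the labels; the sources used here do not say whether these were pooled into the 1 library. The series title names interactions of Cd and Zn and the part of Ca and K in them as the question. At raised Ca/K (N2; 8 mM calcium nitrate and 10 mM potassium nitrate) the libraries were N2_Cd_Zn, N2_Zn, N2_Cd and N2, and at basal Ca/K (N0; 4 mM and 5 mM) they were N0_Cd_Zn, N0_Zn, N0_Cd and N0. Cd stands for 80 µM CdCl2 and Zn for 500 µM Zn, against 0 µM Cd and a basal 5 µM Zn. All plants were of the same cultivar, and nitrate, computed from the salts, was 26 mM in N2 and 13 mM in N0, so its part in any Ca/K difference cannot be told apart from that of Ca and K.

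Library totals ran from 20000875 to 25241789 counts, so a floor of 3 counts equals 0.119 to 0.150 CPM. Because no treatment has a second library, ratios between single libraries carry no replicate check, and intervals given with them cover counting error only. Leaving out N0_Cd_Zn changed several counts below, which are given with and without it. Of the 6 genes of both arms that met the CPM minimum but had reads in a single library, 5 were read in N2_Cd alone.

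A larger share of the genes of 1AS than of 1BS reached the minimum. It was 51.1% on 1AS and 46.1% on 1BS, and 1BS had the lowest share of the 26 A and B arm codes, which ran from 46.1% to 65.7%. Genes without a single read made up 15.4% of 1AS (211 genes) and 22.9% of 1BS (376 genes). Another 455 genes of 1AS and 504 of 1BS had reads but averaged under 1 CPM. The members nearest the minimum from above averaged 1.01 CPM on each arm (TRIAE_CS42_1AS_TGACv1_019865_AA0072330 and TRIAE_CS42_1BS_TGACv1_051007_AA0177190), and the genes nearest below it averaged 0.976 CPM (TRIAE_CS42_1AS_TGACv1_019984_AA0073600) and 0.993 CPM (TRIAE_CS42_1BS_TGACv1_049872_AA0163260).

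Members of both arms had like levels once the minimum was met. The median of the mean FPKM (the level per gene length and library total) was 4.42 on 1AS, 4.32 on 1BS and 3.99 over all genes that met the minimum. The middle range of members, from the lower to the upper quartile, was 1.70 to 11.0 FPKM on 1AS and 1.72 to 10.5 FPKM on 1BS. Median gene length was 1896 bp on 1AS, 1858.5 bp on 1BS and 1809 bp over all genes. Reads were present in all 8 libraries for 681 members of 1AS and 739 of 1BS, and 22 and 26 members averaged 100 CPM or more. The 10 most abundant members of each arm held 22.8% of the counts of 1AS and 23.2% of those of 1BS.

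The 1AS members took a slightly smaller share of the reads than the 1BS members in every library. The share of 1AS was 1.59% in N2_Cd_Zn, 1.55% in N2_Zn, 1.51% in N2_Cd, 1.50% in N2, 1.52% in N0_Cd_Zn, 1.44% in N0_Zn, 1.52% in N0_Cd and 1.40% in N0. The share of 1BS was 1.72%, 1.67%, 1.69%, 1.65%, 1.65%, 1.65%, 1.71% and 1.62% in the same libraries. Wilson 95% intervals of these shares reached at most 0.0057 percentage points to either side. The highest share of 1AS lay below the lowest share of 1BS. The difference, 1AS minus 1BS, averaged -0.167 percentage points (SD 0.040, n = 8) and was negative in 8 of 8 libraries (exact two-sided sign-flip permutation test, p = 0.0078, the smallest that sign flips of 8 libraries can give). Both gene sets were fixed by mean CPM over these same libraries, and 1BS had more members. The p therefore shows recurrence over libraries of a difference between fixed gene sets. Over all genes of both arms, without the minimum, the mean difference was -0.170 points, again negative in 8 of 8. With sums of FPKM in place of counts it was -0.161 points and negative in 7 of 8 (exact sign-flip permutation test, p = 0.0156). Divided by the number of members, the means were 21.5 CPM per 1AS member and 22.1 CPM per 1BS member, lower on 1AS in 6 of 8 libraries (exact sign-flip permutation test, p = 0.0469; this form was chosen after seeing the data).

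**Figure D1:**
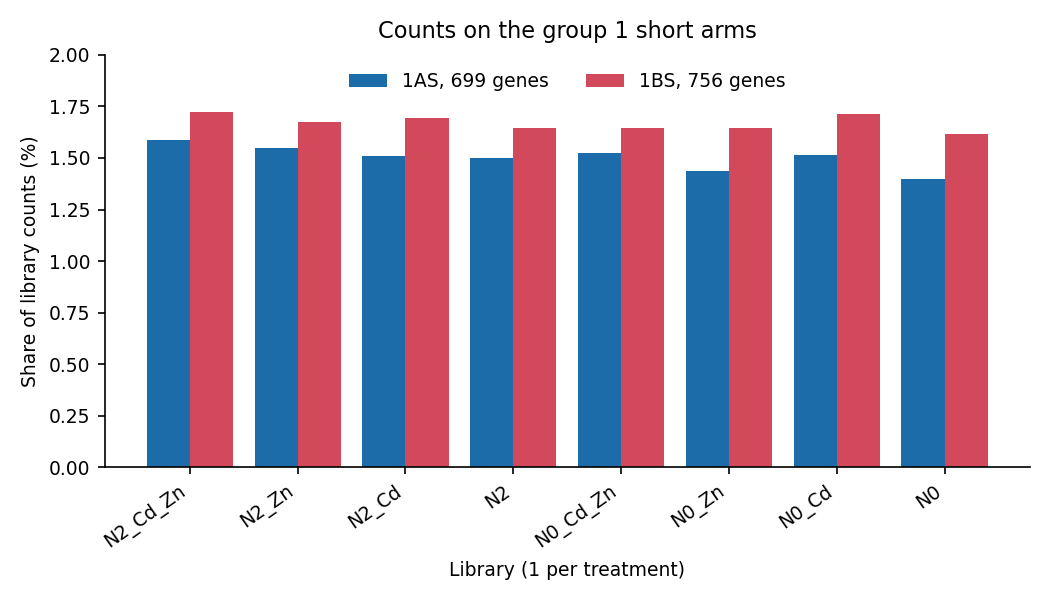
Bars give the percent of each library's counts that fell on the 699 members of 1AS and the 756 members of 1BS, with 1 library per treatment and hence no error bars. The 1AS bars run from 1.40% (N0) to 1.59% (N2_Cd_Zn) and the 1BS bars from 1.62% (N0) to 1.72% (N2_Cd_Zn), so each 1AS bar is lower than its 1BS neighbour.

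The treatments moved these shares little. Both arms together held 3.23% ± 0.06 of counts with Cd and 3.12% ± 0.09 without (SD, n = 4 each; exact two-sided permutation test, p = 0.0857, adjusted over 3 factors 0.257). With and without Zn the values were 3.20% ± 0.10 and 3.15% ± 0.09 (exact permutation p = 0.486, adjusted 0.486), and at raised and basal Ca/K 3.22% ± 0.07 and 3.13% ± 0.09 (exact permutation p = 0.2, adjusted 0.3). None of these differences passed the test against the spread between libraries of other treatments. Between matched pairs, that is libraries that differ in 1 factor and have the other two alike, the direction for Cd was regular: both arms together held 3.31% in N2_Cd_Zn and 3.22% in N2_Zn, 3.20% in N2_Cd and 3.14% in N2, 3.17% in N0_Cd_Zn and 3.08% in N0_Zn, and 3.23% in N0_Cd and 3.02% in N0. The share was thus higher with Cd in 4 of 4 pairs (mean difference 0.111 points, SD 0.068; exact two-sided sign-flip permutation test, p = 0.125, the smallest that 4 pairs allow, in a form chosen after seeing the data). It was higher with Zn in 3 of 4 pairs and at raised Ca/K in 3 of 4 (exact sign-flip permutation p = 0.25 for each). Whole roots were sampled, so fewer cells of a type and less RNA per cell cannot be told apart in any value given here.

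The balance between the arms passed no such test either. The 1AS share of the counts of both arms was 47.5% ± 0.6 with Cd and 47.2% ± 0.8 without (exact permutation p = 0.514, adjusted 0.514). It was 47.7% ± 0.7 with Zn and 47.0% ± 0.5 without (exact permutation p = 0.229, adjusted 0.343), and 47.7% ± 0.4 at raised and 47.0% ± 0.8 at basal Ca/K (exact permutation p = 0.143, adjusted 0.343; n = 4 in each group). The smallest p that 4 libraries against 4 allow is 0.0286. Over matched pairs the 1AS share was higher with Cd in 2 of 4 (exact sign-flip permutation p = 0.625), with Zn in 4 of 4 (p = 0.125, exact) and at raised Ca/K in 3 of 4 (p = 0.25, exact). Without the most abundant member of each arm by counts, the 1AS share went the other way by -0.146 points for Zn and by -0.483 points for Ca/K, so the sign of these differences rested on 1 gene per arm.

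The most abundant member of 1AS and that of 1BS by FPKM moved together. TRIAE_CS42_1AS_TGACv1_019239_AA0063780 (546 bp) had 4460 FPKM in N2_Cd_Zn, 2684 in N2_Zn, 893 in N2_Cd, 1977 in N2, 1007 in N0_Cd_Zn, 2248 in N0_Zn, 1697 in N0_Cd and 776 in N0. TRIAE_CS42_1BS_TGACv1_049956_AA0164740 (697 bp) had 1890, 1127, 327, 842, 462, 1121, 827 and 354 FPKM in the same libraries. Both were highest in N2_Cd_Zn, and the 3 lowest libraries of each were N2_Cd, N0_Cd_Zn and N0. Among all members of the other arm each was the most like in profile (Pearson r = 0.988 of log2 CPM over the 8 libraries, a description without a test). In FPKM the 1AS gene stood 2.00- to 2.73-fold above the 1BS gene in every library. A high r is usual for such a best match. In 312 pairs of a 1AS and a 1BS member each was the other's most similar, and their median r was 0.964. Between 1AS and the short arm of 2B the median was 0.965 over 394 such pairs.

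A second pair of abundant members was steadier. TRIAE_CS42_1AS_TGACv1_020275_AA0076210 (1054 bp) had 451 FPKM in N2_Cd_Zn, 585 in N2_Zn, 721 in N2_Cd, 628 in N2, 903 in N0_Cd_Zn, 343 in N0_Zn, 622 in N0_Cd and 568 in N0. Its partner by profile, TRIAE_CS42_1BS_TGACv1_050070_AA0166960 (1406 bp; mean 519 FPKM), followed it at r = 0.983, with a ratio of 1.01 to 1.23 between the FPKM of the 1AS and the 1BS gene. N0_Cd_Zn was the highest and N0_Zn the lowest library of both. TRIAE_CS42_1BS_TGACv1_049635_AA0158560 (1252 bp), second on 1BS by FPKM, had 998, 598, 457, 308, 141, 1226, 885 and 562 FPKM in the same order of libraries. In FPKM it was 26.1- to 133-fold above the 1AS member of the most similar profile (r = 0.955).

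**Figure D2:**
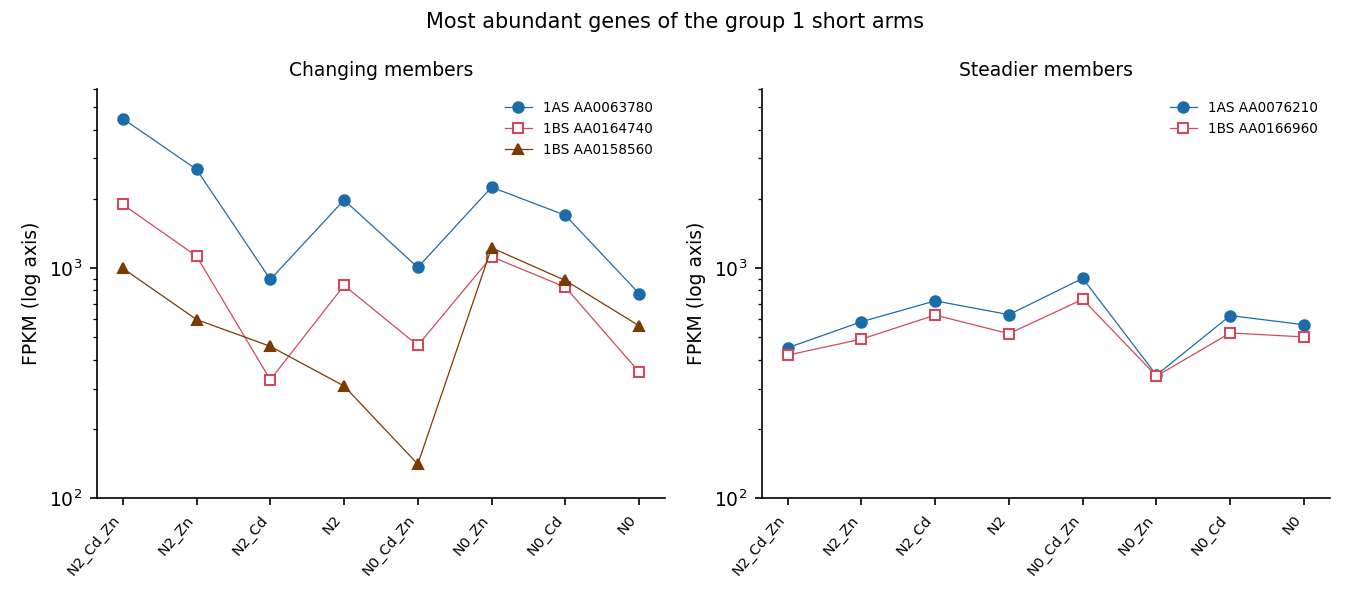
Points give FPKM on a log axis in each of the 8 libraries for the most abundant members, labelled by arm and the last part of the identifier; lines only join the points of 1 gene. In the left panel the 1AS gene AA0063780 runs above the 1BS gene AA0164740 in all 8 libraries with a like pattern, while the 1BS gene AA0158560 drops to 141 FPKM in N0_Cd_Zn; the right panel shows the steadier pair, in which N0_Zn is lowest at 343 FPKM for the 1AS gene.

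Most members varied a few-fold over the 8 treatments. The ratio of the highest to the lowest library, on CPM scaled by TMM (edgeR's trimmed mean normalization, with a prior count of 2), had a median of 3.62 on 1AS, 3.53 on 1BS and 3.25 over all genes that met the minimum. It exceeded 16-fold in 111 members of 1AS (15.9%), 92 of 1BS (12.2%) and 13.7% of all genes. It stayed within 2-fold in 146 and 178 members (20.9% and 23.5%), against 22.8% of all genes.

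Some members hardly moved. TRIAE_CS42_1AS_TGACv1_019287_AA0064380, with the smallest ratio of its arm among members averaging 20 CPM or more (1.20-fold), had 30.7 to 42.7 CPM. TRIAE_CS42_1BS_TGACv1_050648_AA0174220 (1.29-fold) had 30.4 to 45.7 CPM. Both had their highest CPM in N2, the library whose TMM factor was the highest (1.14), and their lowest in libraries at basal Ca/K.

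The library in which a member was highest was most often N0_Zn or N0_Cd_Zn. N0_Cd_Zn was highest for 21.5% of 1AS members, 17.6% of 1BS members and 18.4% of all genes. N0_Zn was highest for 17.3% of 1AS members, 23.1% of 1BS members and 22.2% of all genes. The same libraries were also the most frequent lowest ones. N0_Zn was lowest for 23.3% of 1AS members, 21.3% of 1BS members and 21.7% of all genes, and N0_Cd_Zn for 20.6%, 23.0% and 21.1%. Whether the arms differ in these shares was not tested.

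More members were higher than lower with Cd alone at basal Ca/K. In N0_Cd against N0, 160 of the 979 members that reached 5 CPM in either library were 2-fold or more higher, 16.3% where all genes compared had 12.1%. Another 67 members (6.84%) were 2-fold or more lower, where all genes had 8.73%. Among members that reached 20 CPM in either library, the limit for genes named here and in the comparisons below, the largest ratio was that of TRIAE_CS42_1AS_TGACv1_021675_AA0082050, with 1503 counts in N0_Cd and 5 in N0 (283-fold higher, 95% counting interval 121 to 874). This gene also had 189 counts in N2_Cd and 12 in N2, but 1 count in N0_Cd_Zn and 7 in N0_Zn. The lowest was TRIAE_CS42_1AS_TGACv1_019081_AA0060210, with 9 counts in N0_Cd and 835 in N0 (98.4-fold lower, interval 51.6 to 216).

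Among members the excess of higher over lower genes was smaller at raised Ca/K, and its size depended on the scale and the minimum. In N2_Cd against N2, 141 of 1015 members were higher (13.9%, all genes 12.8%) and 93 lower (9.16%, all genes 7.41%). On log2(FPKM + 1) 100 were higher and 89 lower, and at a minimum of 1 CPM 185 and 177. Among all genes the excess was not smaller than at basal Ca/K, where 12.1% were higher and 8.73% lower. TRIAE_CS42_1AS_TGACv1_019801_AA0071580 had 1161 counts in N2_Cd and 0 in N2 (at least 505-fold higher against 3 counts in N2), and its only other reads were 29 in N2_Zn. With 53.4 CPM in N2_Cd and 1.33 CPM in N2_Zn, its mean of 6.84 CPM met the minimum only through N2_Cd. Its difference is therefore not independent of its choice as a member. TRIAE_CS42_1AS_TGACv1_020412_AA0077320 had 0 counts in N2_Cd and 2437 in N2 (at least 622-fold lower). Beside N2, this gene was read mainly in N0_Cd_Zn, with 203 counts, and had 0 to 28 counts in the other libraries.

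Fewer members were apart with Zn alone than with Cd alone. In N0_Zn against N0, 99 of 925 members were higher (10.7%; all genes 8.42%) and 99 lower (10.7%; all genes 10.4%). In N2_Zn against N2, 108 of 988 were higher (10.9%; all genes 9.77%) and 85 lower (8.60%; all genes 7.09%). On log2(FPKM + 1) lower members were the more frequent in both comparisons, with 63 higher and 94 lower in N0_Zn against N0, and 58 higher and 76 lower in N2_Zn against N2. Of the members compared, 1 was 8-fold or more higher in N0_Zn than in N0 (all genes 101 of 31538). In N2_Zn against N2 it was 7 (all genes 252 of 32471). Among those that reached 20 CPM in either library, the largest increases were those of TRIAE_CS42_1AS_TGACv1_020098_AA0074660, with 1207 counts in N0_Zn and 159 in N0 (8.03-fold, interval 6.80 to 9.54), and TRIAE_CS42_1AS_TGACv1_020168_AA0075290, with 1073 counts in N2_Zn and 142 in N2 (9.94-fold, interval 8.34 to 11.9). On the lower side 22 members were 8-fold or more lower in each comparison (all genes 614 of 31538 at basal and 653 of 32471 at raised Ca/K). Among all genes, too, such lower genes thus outnumbered the higher ones. The lower members that reached 20 CPM were led by the gene TRIAE_CS42_1AS_TGACv1_019081_AA0060210 at basal Ca/K (19 counts in N0_Zn and 835 in N0, 41.5-fold lower). At raised Ca/K the lead gene was TRIAE_CS42_1AS_TGACv1_020412_AA0077320 (8 counts in N2_Zn and 2437 in N2, 232-fold lower).

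With both metals the members were split about evenly. In N0_Cd_Zn against N0, 130 of 954 were higher (13.6%; all genes 13.0%) and 136 lower (14.3%; all genes 14.2%). On log2(FPKM + 1) this comparison had 116 higher and 91 lower. On 1AS 16.4% were higher, on 1BS 11.0%, and this difference was not tested. In N2_Cd_Zn against N2, 113 of 997 were higher (11.3%; all genes 11.7%) and 116 lower (11.6%; all genes 10.7%). TRIAE_CS42_1AS_TGACv1_019979_AA0073480 had 972 counts in N0_Cd_Zn and 14 in N0 (71.3-fold higher, interval 42.3 to 131), and 0 to 37 counts in every other library. With 45.2 CPM in N0_Cd_Zn and 1.48 CPM in the next highest library, N2, its mean of 5.94 CPM met the minimum only through N0_Cd_Zn. Its difference is therefore not independent of its choice as a member. TRIAE_CS42_1AS_TGACv1_020323_AA0076650 had 19 counts in N0_Cd_Zn and 531 in N0 (27.2-fold lower, interval 17.3 to 45.6).

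Raised and basal Ca/K were furthest apart when Zn was present. In N2_Zn against N0_Zn, 223 of 972 members were higher (22.9%; all genes 21.8%) and 184 lower (18.9%; all genes 20.6%), and in N2_Cd_Zn against N0_Cd_Zn 213 of 1020 were higher (20.9%; all genes 19.9%) and 194 lower (19.0%; all genes 18.4%). Without Zn the counts were lower. In N2 against N0, 146 of 986 were higher (14.8%; all genes 13.7%) and 135 lower (13.7%; all genes 15.8%; on log2(FPKM + 1) 150 higher and 79 lower), and in N2_Cd against N0_Cd 94 of 996 were higher (9.44%; all genes 10.8%) and 134 lower (13.5%; all genes 11.0%). The members thus followed all genes within a few percentage points in each of the 10 comparisons. The 6 comparisons with a metal share N0 or N2 in sets of 3, so they are not independent.

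The genes at the extremes of the Ca/K comparisons came from both arms. TRIAE_CS42_1BS_TGACv1_049760_AA0160980 had 134 counts in N2 and 12349 in N0 (113-fold lower, interval 95.2 to 135), and 127 in N2_Zn and 12784 in N0_Zn (99.2-fold lower, interval 83.3 to 119). TRIAE_CS42_1BS_TGACv1_050889_AA0176450 had 697 counts in N2_Zn and 11 in N0_Zn (64.3-fold higher, interval 35.7 to 129). TRIAE_CS42_1AS_TGACv1_019480_AA0067160 had 2195 counts in N2_Cd_Zn and 26 in N0_Cd_Zn (90.7-fold higher, interval 61.7 to 139), but 393 in N2_Cd and 1940 in N0_Cd. This last gene was thus higher at raised than at basal Ca/K with both metals, and lower there with Cd alone. TRIAE_CS42_1AS_TGACv1_019137_AA0061470 had 5 counts in N2_Cd and 584 in N0_Cd (103-fold lower, interval 44.0 to 319).

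**Figure D3:**
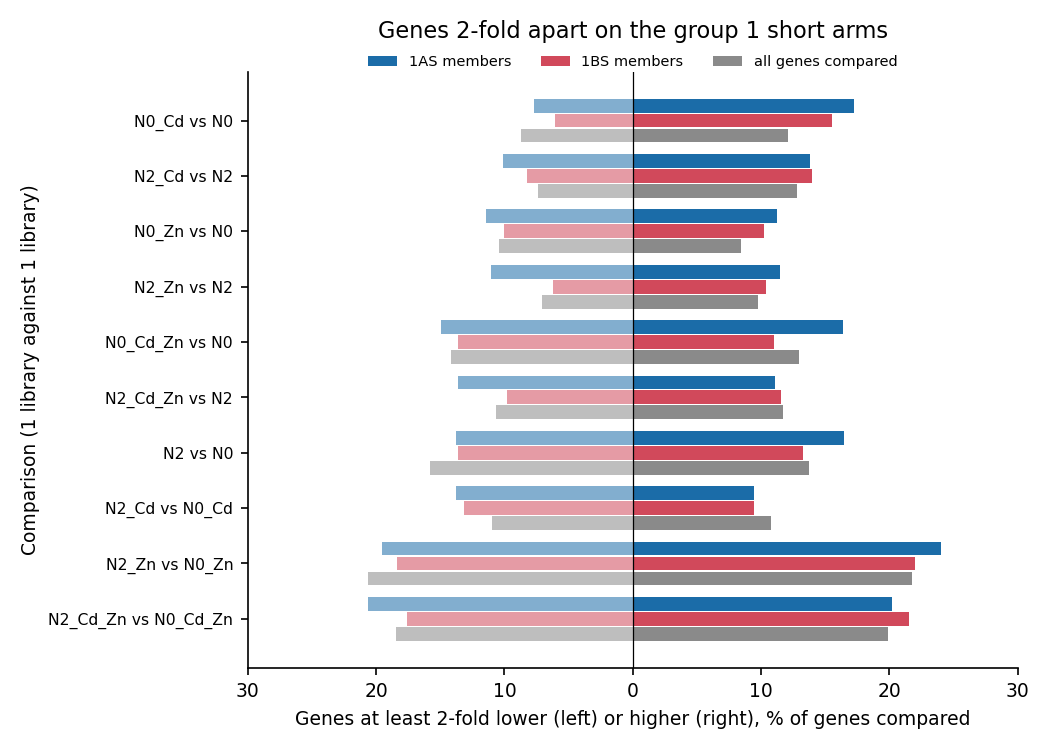
Bars give the percent of genes compared that were at least 2-fold higher (right) or lower (left) in each of 10 comparisons of 1 library with 1 library, for 1AS members, 1BS members and all genes of the table. The members' bars follow those of all genes; the longest are those of the 2 Ca/K comparisons with Zn, with 22.9% of members higher in N2_Zn against N0_Zn, and N0_Cd against N0 is the comparison with the widest gap to all genes (16.3% higher for members, 12.1% for all genes).

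Across the 8 libraries no member passed the test for a main effect of Cd, Zn or Ca/K. The additive model (edgeR quasi-likelihood test, Benjamini-Hochberg adjusted p below 0.05 over all genes) tested 1454 members and called 0 for Cd, 0 for Zn and 0 for Ca/K, where 0.00%, 0.00% and 0.00155% of all 64580 genes tested were called. At an unadjusted p below 0.05 there were 45 members for Cd (3.09%; all genes 2.97%), 29 for Zn (1.99%; all genes 1.97%) and 239 for Ca/K (16.4%; all genes 16.4%). DESeq2 called 11 members for Cd (0.756%; all genes 0.553%), 4 for Zn (0.275%; all genes 0.275%) and 147 for Ca/K (10.1%; all genes 10.0%). On log2(FPKM + 1) limma called 0 for Cd (all genes 0.00%), 0 for Zn (all genes 0.00185%) and 10 for Ca/K (0.709%; all genes 1.02%). Without N0_Cd_Zn, edgeR called 86 members for Ca/K, 27 higher and 59 lower (5.92%; all genes 5.65%), and 0 for Cd and Zn. At an unadjusted p below 0.05 that fit had 149 members for Cd (10.3%; all genes 10.1%), 222 for Zn (15.3%; all genes 13.2%) and 428 for Ca/K (29.5%; all genes 28.4%). In each case the members' share lay near that of all genes.

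With Zn 3 of the 1151 members that reached 5 CPM in any library were 2-fold or more lower in each of the 4 matched pairs (0.261%; all genes 0.232%). TRIAE_CS42_1AS_TGACv1_018996_AA0057560 (1737 bp) had 4.85 CPM in N2_Cd_Zn, 2.56 in N2_Zn, 8.46 in N0_Cd_Zn and 3.88 in N0_Zn, against 40.5 CPM in N2_Cd, 36.5 in N2, 38.6 in N0_Cd and 22.7 in N0. TRIAE_CS42_1BS_TGACv1_049369_AA0150920 (1776 bp) had 3.80, 2.20, 5.07 and 1.51 CPM in the same Zn libraries, against 31.9, 35.7, 29.3 and 17.4 CPM without Zn. The 4 values with Zn lay below the 4 without in both genes, and each was the other's most similar member on the opposite arm (r = 0.979 over 8 libraries). Their mean log2 ratios were -2.84 ± 0.62 and -3.20 ± 0.48 (SD over 4 pairs). By edgeR's quasi-likelihood test the log2 changes were -2.86 (SE 0.30, adjusted p = 0.198) and -3.23 (SE 0.31, adjusted p = 0.191), the smallest p for Zn on each arm, and by DESeq2 the adjusted p were 1.12e-13 and 4.7e-16.

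The third of these members, on 1BS and 770 bp long, had 3.05, 0.870, 3.02 and 1.58 CPM in the Zn libraries, against 11.96, 8.62, 20.8 and 8.93 CPM without Zn, in the same order. Its mean log2 ratio was -2.53 ± 0.46 (SD over 4 pairs; edgeR adjusted p = 0.216, DESeq2 adjusted p = 2.57e-12). No member was 2-fold higher with Zn in all 4 pairs (all genes 0.0428%). Without the pair that holds N0_Cd_Zn, 22 members were lower (1.91%; all genes 1.74%) and 12 higher (1.04%; all genes 0.904%) in the remaining 3 pairs. Counts over 3 pairs, here and below, were computed after seeing the data and cannot be smaller than those over 4.

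One member was higher with Cd in all 4 pairs (0.0869%; all genes 0.297%) and none was lower (all genes 0.0453%). TRIAE_CS42_1AS_TGACv1_020434_AA0077500 had 14 counts in N2_Cd_Zn, 153 in N2_Cd, 2 in N0_Cd_Zn and 7 in N0_Cd, against 0 counts in all 4 libraries without Cd. Its reads thus came mostly from N2_Cd, and N0_Cd_Zn lay under the floor of 3 counts. Its mean of 1.01 CPM met the minimum only through the Cd libraries, so its Cd difference is not independent of its choice as a member. DESeq2 called this gene (adjusted p = 0.00128), whereas edgeR did not after adjustment (log2 change 8.27, SE 1.08, unadjusted p = 0.00289). On 1BS the smallest p for Cd belonged to TRIAE_CS42_1BS_TGACv1_049755_AA0160920, with 6.45 CPM in N2_Cd_Zn, 8.92 in N2_Cd, 6.37 in N0_Cd_Zn and 9.76 in N0_Cd, against 1.19 in N2_Zn, 2.25 in N2, 2.69 in N0_Zn and 2.19 in N0 (edgeR log2 change 1.87, SE 0.34, adjusted p = 1; DESeq2 adjusted p = 0.00028). The 2 groups of this gene did not overlap. Without the pair that holds N0_Cd_Zn, 24 members were higher (2.09%; all genes 1.46%) and 9 lower (0.782%; all genes 0.856%) with Cd. Without the pair that holds N2_Cd, 3 were higher (0.261%; all genes 0.410%) and 1 lower (0.0869%; all genes 0.138%).

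Raised Ca/K gave the most members with a recurrent difference. In all 4 pairs 19 members were 2-fold or more higher (9 on 1AS and 10 on 1BS; 1.65%, all genes 2.65%) and 12 were lower (5 and 7; 1.04%, all genes 1.53%). Values did not overlap between the 4 libraries at raised and the 4 at basal Ca/K for 81 of 1455 members that were higher (5.57%; all genes 6.43%) and 104 that were lower (7.15%; all genes 8.20%). For Cd 10 members were higher (all genes 0.730%) and 9 lower (all genes 0.686%) without overlap, and for Zn 6 (all genes 0.356%) and 7 (all genes 0.499%). Counting any difference in 1 direction in all 4 pairs, 207 members were higher (14.2%; all genes 14.1%) and 199 lower (13.7%; all genes 15.0%) at raised Ca/K, 49 higher (3.37%; all genes 3.77%) and 71 lower (4.88%; all genes 4.73%) with Cd, and 49 higher (3.37%; all genes 3.60%) and 38 lower (2.61%; all genes 3.52%) with Zn. Without the pair that holds N0_Cd_Zn the 2-fold counts for Ca/K were 47 higher (4.08%; all genes 5.32%) and 60 lower (5.21%; all genes 6.24%). Without the pair that holds N2_Cd they were 42 higher (3.65%; all genes 4.46%) and 17 lower (1.48%; all genes 2.18%).

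On each arm the member with the smallest edgeR p for Ca/K was lower at raised Ca/K. TRIAE_CS42_1AS_TGACv1_021591_AA0081960 had 7.80, 5.45, 4.87 and 8.90 CPM in N2_Cd_Zn, N2_Zn, N2_Cd and N2, against 31.1, 37.7, 27.9 and 26.9 CPM in N0_Cd_Zn, N0_Zn, N0_Cd and N0 (edgeR log2 change -2.32, SE 0.26, adjusted p = 0.0603; DESeq2 adjusted p = 5.78e-12). TRIAE_CS42_1BS_TGACv1_050351_AA0171060 had 1.30, 1.01, 1.66 and 2.01 CPM, against 6.83, 4.04, 7.40 and 7.11 CPM in the same order (edgeR log2 change -2.21, SE 0.27, adjusted p = 0.0717; DESeq2 adjusted p = 1.35e-10). In both genes the groups did not overlap. In the other direction, TRIAE_CS42_1BS_TGACv1_051068_AA0177610 had 37.5, 37.5, 63.2 and 21.1 CPM at raised Ca/K, against 2.18, 1.70, 15.2 and 2.23 CPM at basal Ca/K (mean log2 ratio 3.31 ± 1.02, SD over 4 pairs; edgeR adjusted p = 0.126, DESeq2 adjusted p = 1.87e-05). Among the basal libraries, N0_Cd was the high one for this gene.

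Genes next to each other on a scaffold, with consecutive identifiers, were on the whole little more alike than others. The 140 neighbouring pairs of members on 1AS had a median Pearson r of 0.09 between log2 CPM profiles over the 8 libraries, and the 139 pairs on 1BS one of 0.07, where pairs on different scaffolds of the same arm had medians of -0.0027 and -0.0018. Strong likeness was more frequent among neighbours: r was above 0.9 in 4.29% of neighbouring pairs on 1AS and 4.32% on 1BS, against 0.840% and 0.967% of pairs on different scaffolds. Over all A and B arms the share among 9430 neighbouring pairs was 4.33%. All pairs share the same 8 libraries, so these values are descriptions without a test.

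**Figure D4:**
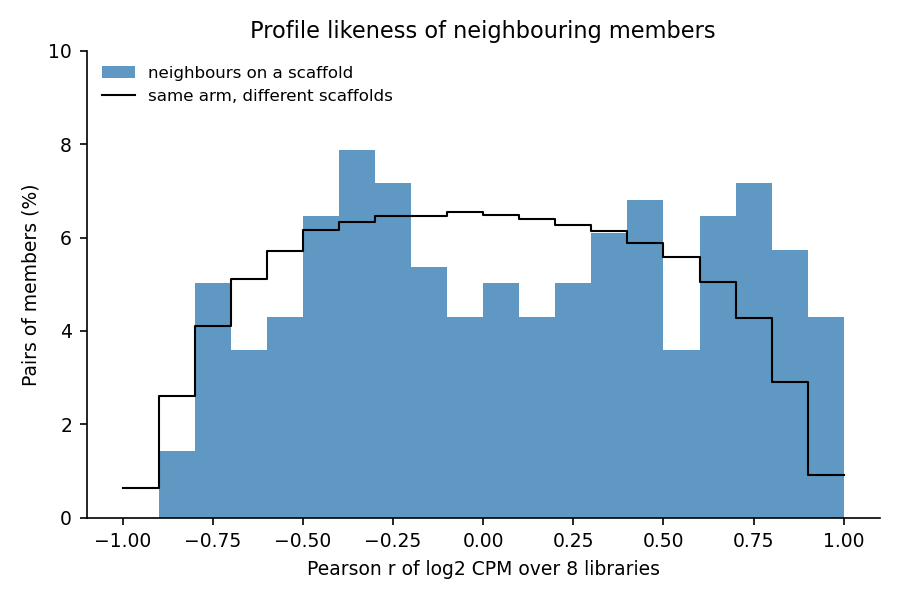
Bars show the percent of 279 neighbouring pairs of members on 1 scaffold by the Pearson r of their log2 CPM over 8 libraries, in steps of 0.1, and the black line shows pairs of the same arm on different scaffolds. The bars exceed the line above r = 0.6 and most clearly in the last step above 0.9.

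In 3 neighbouring pairs both genes spanned more than 16-fold and correlated above 0.9, and all 3 pairs had lower values at raised Ca/K. TRIAE_CS42_1BS_TGACv1_049760_AA0160980 (2886 bp) had 36.7 CPM in N2_Cd_Zn, 5.82 in N2_Zn, 5.84 in N2_Cd and 5.38 in N2, against 89.4 in N0_Cd_Zn, 506 in N0_Zn, 124 in N0_Cd and 511 in N0. Its neighbour TRIAE_CS42_1BS_TGACv1_049760_AA0160990 (1666 bp) had 28.9, 9.53, 7.63 and 9.07 CPM, against 112, 365, 112 and 309 CPM in the same order (r = 0.994). In both, N0_Zn and N0 stood above N0_Cd_Zn and N0_Cd, and N2_Cd_Zn was the highest of the raised libraries. The mean log2 ratios over 4 pairs were -4.78 ± 2.57 and -4.15 ± 1.63 (SD; edgeR adjusted p = 0.158 and 0.105, DESeq2 adjusted p = 1.22e-06 and 2.83e-09).

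The other two pairs of this kind lay on 1AS. TRIAE_CS42_1AS_TGACv1_019383_AA0065910 (5927 bp) had 29.3, 19.4, 12.9 and 13.7 CPM at raised Ca/K, against 136, 286, 119 and 286 CPM at basal Ca/K, and its neighbour TRIAE_CS42_1AS_TGACv1_019383_AA0065920 (5712 bp), a barely read gene with 1 to 13 counts at raised and 36 to 79 at basal Ca/K, followed it at r = 0.913. The profile of the first matched that of TRIAE_CS42_1BS_TGACv1_049760_AA0160990 at r = 0.994, each being the other's most similar member on the opposite arm, although their lengths differ. The pair TRIAE_CS42_1AS_TGACv1_020318_AA0076580 (2725 bp) and TRIAE_CS42_1AS_TGACv1_020318_AA0076590 (1069 bp; r = 0.950) had 5.93 to 24.6 and 2.85 to 30.3 CPM at raised Ca/K, against 40.1 to 139 and 24.7 to 164 CPM at basal Ca/K. In the second gene of this pair N2_Cd_Zn, at 30.3 CPM, overlapped N0_Cd_Zn, at 24.7 CPM.

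Likeness across the arms was searched with profile and length alone, since no sequence was used. For 312 pairs of a 1AS and a 1BS member each gene was the other's most similar by profile, and in 17 of them (5.45%) the lengths were within 2% of each other. In the 11 pairings of 1AS or 1BS with another short arm of the opposite subgenome, 1.08% to 3.64% of such pairs were that close in length. With r above 0.95 as well, 16 pairs were found between 1AS and 1BS and 2 to 9 in each of the other pairings. The profile alone did not set the pairs of 1AS and 1BS apart. Their median r was 0.964, and it was 0.960 to 0.969 in the other pairings. The sources used here do not say how the authors counted reads shared by near-identical copies, and the part of such reads in this likeness was not tested.

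The most similar of these pairs was almost equal in level as well. TRIAE_CS42_1AS_TGACv1_019467_AA0067010 (4714 bp) had 49.7, 63.6, 76.3, 91.7, 118, 49.2, 57.6 and 45.4 CPM in N2_Cd_Zn, N2_Zn, N2_Cd, N2, N0_Cd_Zn, N0_Zn, N0_Cd and N0. TRIAE_CS42_1BS_TGACv1_051023_AA0177300 (4761 bp) had 51.6, 65.0, 78.8, 92.5, 121, 47.4, 58.3 and 46.6 CPM (r = 0.997). N0_Cd_Zn was the highest library of both. Of the 17 pairs, the 1BS gene had the higher mean CPM in 12 and the 1AS gene in 5, and 4 pairs were 4-fold or more apart. In 1 of these, TRIAE_CS42_1AS_TGACv1_020202_AA0075570 averaged 16.5 CPM and TRIAE_CS42_1BS_TGACv1_049377_AA0151180 2.21 CPM (lengths 1699 and 1715 bp; r = 0.984), and in another, TRIAE_CS42_1AS_TGACv1_019409_AA0066240 averaged 83.4 CPM and TRIAE_CS42_1BS_TGACv1_051219_AA0178620 10.6 CPM (2650 and 2693 bp; r = 0.963). In the first of these the 1AS gene spanned 2.95-fold and the 1BS gene 25.0-fold, and in the second 1.66-fold and 11.3-fold. Over the 17 pairs the 1AS gene had the wider range in 5 and the 1BS gene in 12.

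On both arms 1 pair of neighbours repeated the same contrast. TRIAE_CS42_1AS_TGACv1_019644_AA0069370 (1407 bp) had 25.4, 28.7, 38.7 and 9.35 CPM in N2_Cd_Zn, N2_Zn, N2_Cd and N2, against 1.81, 3.37, 18.4 and 2.19 CPM in N0_Cd_Zn, N0_Zn, N0_Cd and N0. TRIAE_CS42_1BS_TGACv1_049611_AA0157950 (1382 bp) had 35.5, 40.3, 61.7 and 11.8 CPM, against 1.63, 4.36, 29.2 and 2.94 CPM (r = 0.996). Both belong to the 19 members that were higher at raised Ca/K in all 4 pairs, and in both N2_Cd was the highest library and N0_Cd the highest of the basal ones.

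The genes beside them went the opposite way and varied less. TRIAE_CS42_1AS_TGACv1_019644_AA0069380 (4218 bp) had 13.4, 11.0, 13.1 and 12.1 CPM at raised Ca/K, against 23.5, 18.9, 19.5 and 22.3 CPM at basal Ca/K. TRIAE_CS42_1BS_TGACv1_049611_AA0157960 (4184 bp) had 17.3, 16.6, 16.0 and 14.5 CPM, against 31.0, 23.8, 27.3 and 31.1 CPM (r = 0.978). The groups did not overlap in either gene, and the whole range was 2.18-fold on 1AS and 2.54-fold on 1BS. In these pairs neighbours on 1 arm thus differed in direction, while each gene had its most similar profile in a gene of like length on the other arm. The partners were picked by that likeness, and whether the scaffolds of the arms correspond was not tested.

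**Figure D5:**
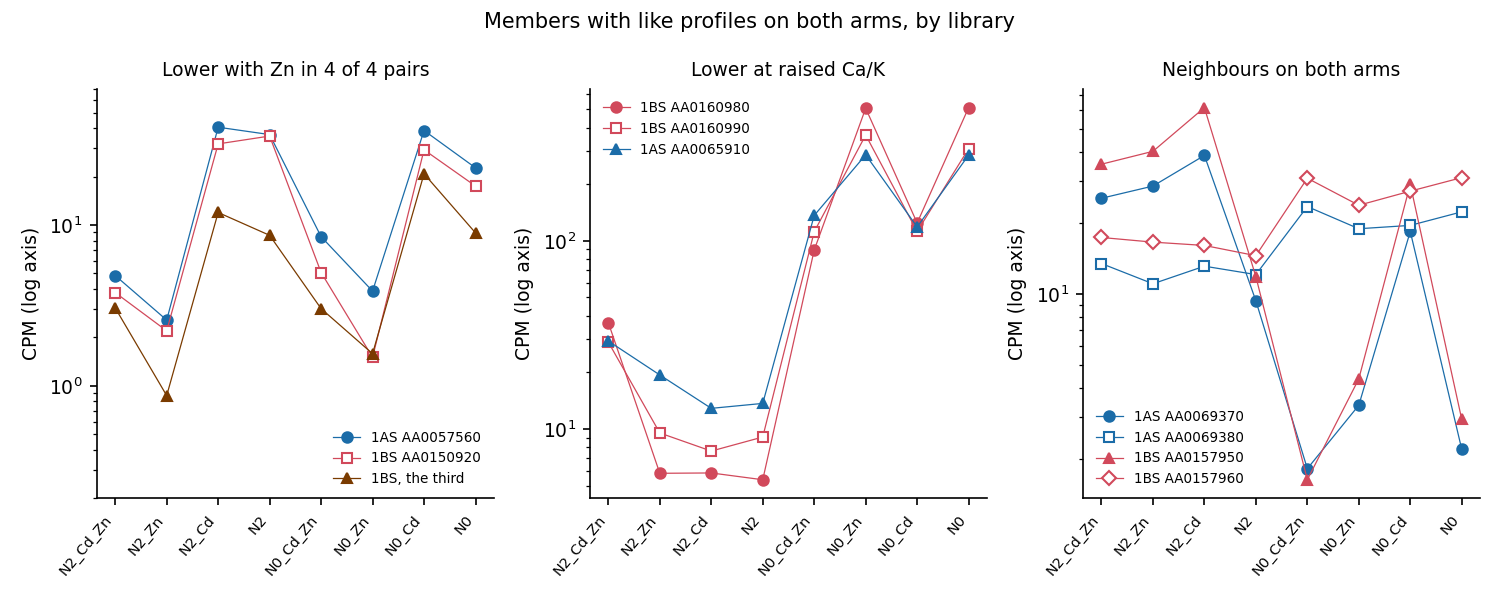
Points give CPM on a log axis in the 8 libraries, labelled by arm and the last part of the identifier; lines only join the points of 1 gene. The left panel shows the 3 members lower with Zn in all 4 pairs, the middle panel 3 members with lower values at raised Ca/K (5.38 to 36.7 CPM for AA0160980, against 89.4 to 511 CPM at basal Ca/K), and the right panel the neighbouring genes of 1AS and 1BS, of which AA0069370 and AA0157950 are higher and AA0069380 and AA0157960 lower at raised Ca/K.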

How the data were processed

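RNA sequencing of root RNA gave 1 library for each of 8 treatments. Per the labels' protocols, Trizol extraction was followed by Illumina TruSeq library preparation, whereas the series text mentions long-read sequencing. Per the submitters' processing notes, Bowtie2 2.0.6 and TopHat2 2.0.12 were used; the sources used here do not name the counter, its strand setting, the genome build or the annotation. The deposited counts are whole reads per gene, and gene lengths were recovered from the FPKM values that the authors deposited beside them, which are count over length and total. Column names gave the treatment, and 0 columns went unused.

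The main test was that of edgeR 4.0.16 under R 4.3.3 (robust quasi-likelihood fit, TMM scaling, low genes removed by filterByExpr at 10 counts) in an additive model of Ca/K, Cd and Zn with 4 residual degrees of freedom. Its p-values measure recurrence over libraries of different treatments, which may include technical spread. In simulated counts of 62661 genes at the fitted dispersions, the Cd test recovered 6 of 100 genes altered 4-fold and 74 of 100 altered 16-fold, and made 5 false calls. The altered genes were drawn only from genes with more counts than members near 1 CPM hold, so recovery near that minimum was not measured. Only a Cd difference was simulated, without differences for Zn or Ca/K, so recovery by the Zn and Ca/K tests was not measured either. Single libraries were compared as log2 ratios of TMM-scaled CPM (prior count 2). A fold against 0 counts is a bound against 3 counts per library. Shares were compared by exact permutation tests (SciPy 1.17.1). Alternatives were DESeq2 1.42.0, limma 3.58.1, other size factors, filters, minimums and members, and leaving out libraries.

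Members named are the 2 of highest mean FPKM and the steadiest of each arm, the extreme ratios of each comparison (20 CPM or more in 1 library), the smallest edgeR p per arm and factor, the largest recurrent ratios, and the genes nearest the minimum. The neighbouring and cross-arm pairs were picked with their values known. The members and lists were chosen with earlier results of these data known.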

Additional observations from a re-analysis of the deposited data

Results flagged for a closer look

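Among the 4 libraries with Zn, N0_Zn lay far from the others in the 1AS share of the counts of both arms, at 46.61%, against 48.00% in N2_Cd_Zn, 48.10% in N2_Zn and 48.06% in N0_Cd_Zn. In all, 12 groups of 4 were examined for such a library, and chance flags about 1 in 20 groups.

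The median log2 ratio of 1AS members had opposite signs at the 2 Ca/K levels for Cd alone, with -0.0001337 in N2_Cd against N2 and 0.04617 in N0_Cd against N0. The first of these is hardly apart from no change. The medians of all genes compared were 0.067 and -0.0072, with the signs the other way round. For both metals the median of 1BS members was 0.08777 in N2_Cd_Zn against N2 and -0.102 in N0_Cd_Zn against N0, and the medians of all genes compared were 0.05 and -0.09. Neither difference was tested.

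Reads on genes coded 1DS, the short arm of chromosome 1D that tetraploid wheat lacks, were outside the comparisons above. The 132 such genes that met the minimum held 0.2138% of the counts of N0_Cd_Zn (95% Wilson interval 0.2119% to 0.2158%) and 0.06049% of those of N0_Zn (0.05954% to 0.06146%), which were the highest and the lowest of the 8 libraries. Where these reads came from was not tested.

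Among the genes left out because a single library held reads, TRIAE_CS42_1AS_TGACv1_019078_AA0059980 had 1068 counts and TRIAE_CS42_1BS_TGACv1_049356_AA0150030 had 1751 counts, both in N2_Cd, against 0 counts in the other 7 libraries. TRIAE_CS42_1AS_TGACv1_019763_AA0071120 had 240 counts, all in N2.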

How the results depend on the processing

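No paired analysis was possible because the labels number no replicates and each treatment has 1 library; the matched pairs of the report pair libraries by the other factors, not by a replicate number. The mean difference of 1AS minus 1BS kept its sign and its side of the threshold under all alternatives run. These included sums of FPKM, with 1AS lower in 7 of 8 libraries, and mean CPM per member, with 1AS lower in 6 of 8. The difference in percent of library counts lay between -0.1729 and -0.1591 points when 1 library was left out. Leaving out 1 library gave between 0 and 0 members called for Cd, 0 and 0 for Zn and 0 and 86 for Ca/K, the last without N0_Cd_Zn. The same step gave differences in the 1AS share of 0.0872 to 0.666 points for Cd, 0.4406 to 1.024 for Zn and 0.5127 to 1.08 for Ca/K, and in the share of both arms of 0.07784 to 0.1465, 0.006212 to 0.0876 and 0.05899 to 0.1291. Without the most abundant member of each arm, TRIAE_CS42_1AS_TGACv1_019239_AA0063780 and TRIAE_CS42_1BS_TGACv1_049635_AA0158560, the 1AS share changed sign for Zn (-0.1455) and Ca/K (-0.4832), and so did the share of both arms for Zn (-0.04284). DESeq2 called 11 members for Cd, 4 for Zn and 147 for Ca/K, and limma called 10 for Ca/K on log2(FPKM + 1) and 8 on log2(FPKM + 0.1); the cause was not tested. A minimum of 1 CPM, which admits more genes, gave 369 members 2-fold apart in N0_Cd against N0, 362 in N2_Cd against N2, 349 in N0_Zn against N0, 304 in N2_Zn against N2 and 407 in N0_Cd_Zn against N0. With log2(FPKM + 1), 63 members were higher and 94 lower in N0_Zn against N0, 58 and 76 in N2_Zn against N2, 116 and 91 in N0_Cd_Zn against N0, and 150 higher and 79 lower in N2 against N0; the median of all genes shifted by over 0.1 in 7 of 10 comparisons, by -0.19 in N2_Zn against N2 and 0.22 in N2 against N0. Chosen after seeing the data, recurrence without the pair holding N0_Cd_Zn gave 24 members higher and 9 lower for Cd, 12 and 22 for Zn, and 47 and 60 for Ca/K. Without the pair holding N2_Cd it gave 3 higher and 1 lower for Cd and 42 higher for Ca/K. The shares of all genes under the same steps stand beside these counts in the report, and were above those of the members for Ca/K. Depth limits members near 1 CPM, where a library holds some 20 to 25 counts.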
